A study of Homo sapiens with 8 samples.

Results

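The genes described here are 48 components of the DNA replication machinery, chosen by symbol from a list that runs from origin licensing through the replicative helicase and the polymerases to nucleotide supply. They are 48 of the 26475 gene symbols in the count table, and all 48 had enough counts to be tested. The cells were BT474, a breast carcinoma line that carries an ERBB2 amplification, plated in 6-well plates for a study of persistence under the kinase inhibitor lapatinib. The labels give NPY1R high for 4 libraries and NPY1R low for the other 4, as a genotype; NPY1R encodes a receptor for neuropeptide Y. No drug is named for any library. The labels do not say how high and low cells were obtained or whether replicates were separate cultures, so p-values measure only the spread between these libraries.

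Replication origins are licensed in G1, when the origin recognition complex (ORC), CDC6 and CDT1 load the ring-shaped MCM2-7 helicase onto DNA. At the start of S phase CDC45 and the GINS complex join MCM2-7 to form the active helicase, and polymerases alpha, delta and epsilon copy the strands with the sliding clamp PCNA and its loader RFC. Many of these genes are known targets of E2F transcription factors and are expressed in late G1 and S phase, whereas genes for mitosis are expressed later, in G2 and M. In tumours, several of the proteins, MCM2 and PCNA among them, are used as markers of proliferating cells.

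Library totals ranged from 18025648 to 30609791 expected counts. NPY1R had 699, 728, 1049 and 950 CPM (counts scaled to library size) in the NPY1R high libraries and 90.8, 94.9, 92.8 and 104 CPM in the NPY1R low libraries, so the groups matched their labels. All 8 luminal epithelial markers examined, which mark the cell type of the line, passed the filter on low counts, and 4 of them differed between the groups: ESR1 (0.59 on the log2 scale) and GATA3 (0.60) were called higher, and FOXA1 (-0.23) and EPCAM (-0.30) lower. Of 10 markers of leukocytes, endothelium, stroma and basal cells, 7 had at most 12 counts over the 8 libraries together, with CD3E, DCN and KRT14 at 0, and none of the other 3 (CD68, VWF and COL1A1, all at 17.8 CPM or below) passed the test. Libraries differed in a trend with transcript GC content, and NPY1R low replicate 4 lay at one end of it. Its values are given for the GC-rich genes with the widest intervals.

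Most of the replication machinery did not pass the test of a difference between NPY1R high and NPY1R low cells. At an adjusted p under 0.05, 4 of the 48 genes were lower in NPY1R high and 0 were higher, while 7.81% of all 14008 tested genes were called lower and 5.78% higher, 13.6% in either direction. The 4 genes are 8.33% of the list, close to the background. They were RFC3, RRM1, MCM8 and RPA3, each from a different part of the machinery. At an unadjusted p under 0.05, 7 of the 48 were lower and 0 higher, against 15.1% and 11.1% of all tested genes. DESeq2 called 4 of the 48 lower and 0 higher, against 6.7% and 6.55% of the genes it tested. In bulk RNA a smaller share of cells in a phase and less RNA per cell cannot be told apart.

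Differences were small throughout. The median log2 fold change of the 48 genes was -0.09, against -0.03 for all tested genes, and single genes ranged from -0.47 for RFC3 to 0.12 for MCM3. The sign was negative for 41 of the 48 genes (85.4%), against 55.9% of all tested genes. That count moved with the scaling and with single libraries. The reported scaling by TMM took NPY1R low replicate 4 as its reference library. With each other reference library, 33 to 37 of the 48 were negative. In those fits 3 of the 48 were called lower, against 6.18% to 6.37% of all tested genes. The median of the 48 then lay between -0.063 and -0.049, against -0.0034 to 0.011 for all tested genes. Upper-quartile factors gave 31 negative and a median of -0.04, but they also moved the median of all tested genes, to 0.03. Leaving out NPY1R high replicate 4 gave 24 negative and a median of -0.00053, against 0.0084 for all tested genes. Other scalings also moved the share of all called genes that were higher, from 42.5% to between 49.5% and 56.3%. The 95% confidence interval lay within 0.5 of 0 on the log2 scale for 35 of the 44 genes that were not called, and reached beyond it for the other 9.

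**Figure D1:**
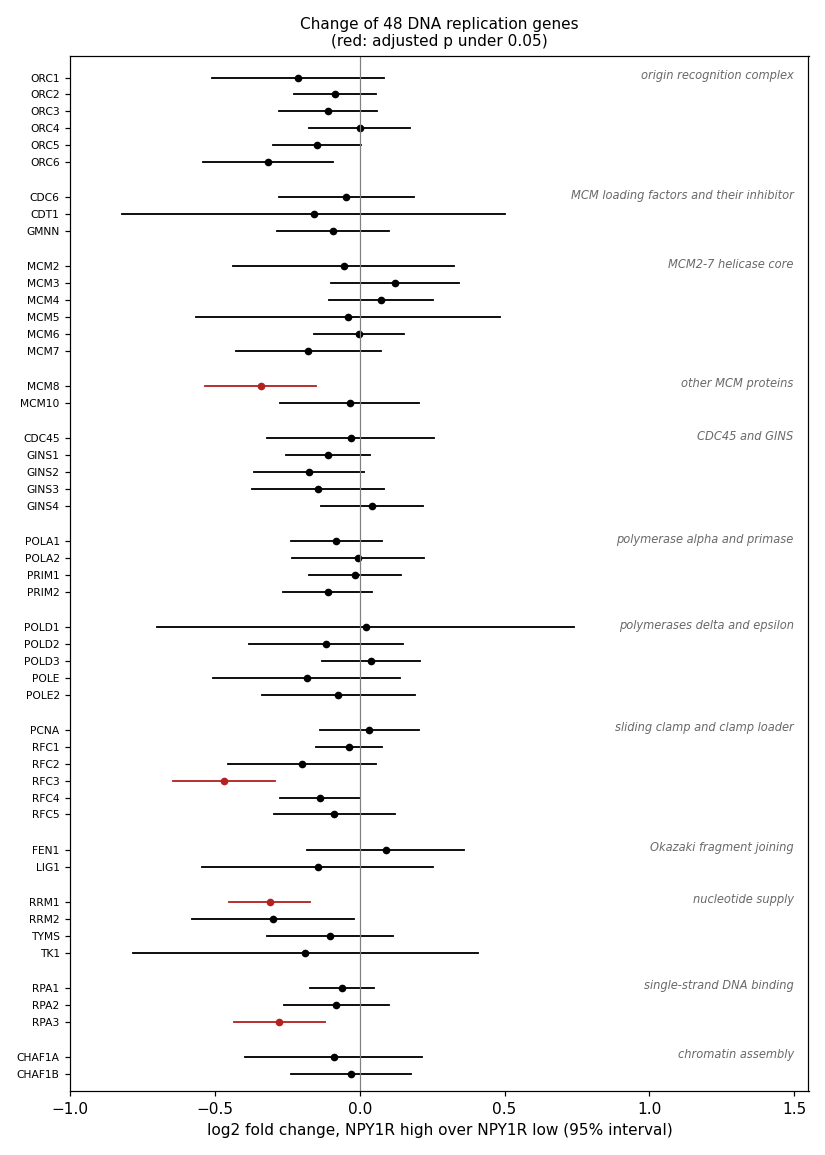
Log2 fold change of NPY1R high over NPY1R low (x axis) for the 48 replication genes (y axis), grouped by role. Points are edgeR estimates and lines are 95% intervals over 4 against 4 libraries; the 4 genes in red, MCM8, RFC3, RRM1 and RPA3, had an adjusted p under 0.05 and all lie below 0.

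RFC3, a small subunit of the clamp loader that places PCNA on DNA, had the largest difference of the list. Its level was 65.2, 70.4, 60.1 and 54.2 CPM in the NPY1R high libraries and 86.9, 91.1, 84.8 and 83.5 CPM in the NPY1R low libraries. Every NPY1R high library was below every NPY1R low library. The means were 62.5 ± 6.91 and 86.6 ± 3.33 CPM (SD, n = 4 each), a log2 fold change of -0.47 (SE 0.08, adjusted p 0.00318), or 27.8% lower. The difference was -0.39 between replicates 1 and 2 of the groups and -0.56 between replicates 3 and 4. RFC3 was called lower in all 28 alternative fits.

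RRM1, the large subunit of ribonucleotide reductase, which makes deoxynucleotides, had 155, 152, 142 and 131 CPM in NPY1R high and 179, 186, 171 and 184 CPM in NPY1R low. The groups did not overlap. The log2 fold change was -0.31 (SE 0.06, adjusted p 0.00839), and it passed the threshold in all 28 alternative fits. RRM1 overlaps an antisense transcript, RRM1-AS1, in GENCODE, which has no row in the count table. The kit was stranded, but the strand setting of the counting is not given in the sources used here.

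MCM8, a relative of the MCM2-7 subunits that acts with MCM9 in recombination repair at damaged forks, had 63.8, 69.1, 54.0 and 55.2 CPM in NPY1R high and 76.3, 80.0, 79.5 and 71.1 CPM in NPY1R low. Again no NPY1R high library reached the lowest NPY1R low library. The log2 fold change was -0.34 (SE 0.09, adjusted p 0.0251). The call was lost in 5 of the 8 fits that left out a library (NPY1R high replicates 3 and 4, NPY1R low replicates 1, 2 and 3), with adjusted p up to 0.124, and with library totals.

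RPA3, the smallest subunit of the complex that coats single-stranded DNA, had 37.6, 38.8, 42.2 and 35.4 CPM in NPY1R high and 45.5, 44.4, 49.0 and 47.9 CPM in NPY1R low. The groups did not overlap, but the gap between the nearest libraries was small. The log2 fold change was -0.28 (SE 0.07, adjusted p 0.0259), and it was called in 10 of the 28 alternative fits. The call was lost with each other TMM reference library. Exons of RPA3 overlap UMAD1 on the other strand, which had a log2 fold change of -0.18 (SE 0.10, adjusted p 0.307), so the reads of these genes may not be fully separated. The expected counts of RPA3 were whole numbers in every library.

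In all, 5 of the 48 genes had groups that did not overlap with NPY1R high below, against 11.4% of all tested genes, and 0 had NPY1R high above, against 8.77%. The fifth was ORC6, the subunit of the origin recognition complex that is bound least firmly to the others. It had 36.1, 37.3, 30.5 and 29.8 CPM in NPY1R high and 44.2, 46.2, 38.6 and 37.7 CPM in NPY1R low. Each group held a higher pair, replicates 1 and 2, and a lower pair, replicates 3 and 4. The log2 fold change was -0.32 (SE 0.10), and its adjusted p of 0.0665 did not pass. When the fit allowed for these pairs the adjusted p was 0.00184. Of the 8 fits that left out a library, 1 called ORC6 (without NPY1R low replicate 4, adjusted p 0.0461), and the other 7 did not, with adjusted p up to 0.238. Every other scaling and TMM reference gave an adjusted p from 0.0777 to 0.122.

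**Figure D2:**
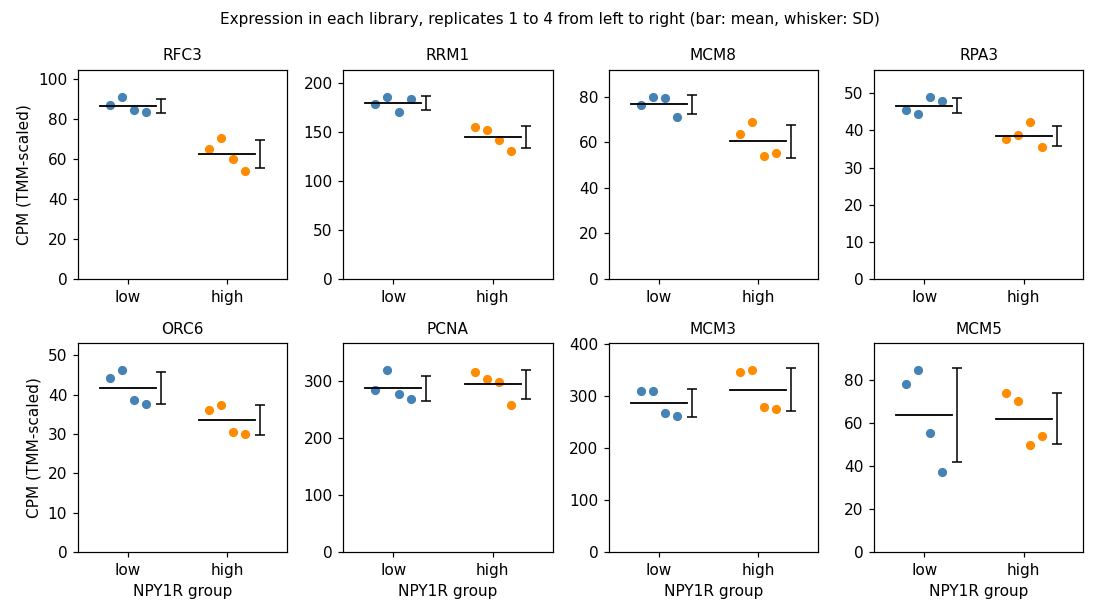
CPM (y axis, from 0) in each library of NPY1R low and NPY1R high (x axis) for 8 replication genes; points are libraries, horizontal bars are means and whiskers are SD over 4 libraries. RFC3, RRM1, MCM8, RPA3 and ORC6 do not overlap between the groups, while PCNA, MCM3 and MCM5 overlap.

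The promoters show which regulatory words these genes hold. Of the 48 genes, 42 had a promoter in the RefSeq table of GRCh38.p14 (250 bases before to 50 after the start site, 300 in all). An E2F word, any of TTTCCCGC, TTTGGCGC, TTTGCCGC or TTTCGCGC on either strand, was found in 19 of the 42 (45.2%), against 5.26% of the 10248 tested genes with a promoter and 3.33% of all 27305 promoters. It was in all 4 promoters of the MCM2-7 core and in 3 of 4 of CDC45 and GINS. The CHR word, TTTGAA or TTCGAA, which marks many genes of G2 and M phase, was found in 2 of 42 (4.76%), against 11.1% of tested genes. CCAAT, the word bound by NF-Y, was found in 24 of 42 (57.1%), against 36.7%. The 19 genes with an E2F word had a median log2 fold change of -0.11 with 2 called, and the 23 without had -0.09 with 1 called. A word is a match of letters and not evidence of binding.

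The promoters of 3 called genes, RFC3, RRM1 and MCM8, are printed with those of PCNA and MCM6, which were not called, and of CCNB2, a mitotic cyclin, for contrast. Capitals mark E2F, CHR and CCAAT words on either strand, and positions are the leftmost base counted from the start site. RFC3 (chr13:33817899-33818198, plus strand) held an E2F word at -55 and no CCAAT. RRM1 (chr11:4094435-4094734, plus strand) held no E2F word, a CCAAT at -28 and a CHR word at -199. MCM8 (chr20:5950402-5950701, plus strand) held an E2F word at 26 and a CCAAT at -40. PCNA (chr20:5126573-5126872, minus strand) held an E2F word at -59 and 3 CCAAT words. MCM6 (chr2:135876394-135876693, minus strand) held 4 E2F words in 2 overlapping pairs, with 2 CCAAT words and a CHR word at -246. CCNB2 (chr15:59104896-59105195, plus strand) held no E2F word, 4 CCAAT words and a CHR word at -29.
RFC3: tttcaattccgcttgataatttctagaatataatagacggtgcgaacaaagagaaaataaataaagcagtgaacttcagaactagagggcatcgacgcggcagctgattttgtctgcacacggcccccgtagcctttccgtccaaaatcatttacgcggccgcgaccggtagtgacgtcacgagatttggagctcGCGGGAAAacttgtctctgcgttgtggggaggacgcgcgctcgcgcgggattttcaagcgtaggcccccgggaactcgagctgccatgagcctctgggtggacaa
RRM1: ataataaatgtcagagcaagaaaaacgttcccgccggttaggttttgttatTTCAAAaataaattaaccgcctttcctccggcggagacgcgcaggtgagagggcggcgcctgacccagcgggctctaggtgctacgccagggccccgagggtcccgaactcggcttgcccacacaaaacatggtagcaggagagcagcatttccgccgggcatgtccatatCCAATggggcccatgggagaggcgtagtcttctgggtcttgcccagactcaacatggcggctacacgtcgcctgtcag
MCM8: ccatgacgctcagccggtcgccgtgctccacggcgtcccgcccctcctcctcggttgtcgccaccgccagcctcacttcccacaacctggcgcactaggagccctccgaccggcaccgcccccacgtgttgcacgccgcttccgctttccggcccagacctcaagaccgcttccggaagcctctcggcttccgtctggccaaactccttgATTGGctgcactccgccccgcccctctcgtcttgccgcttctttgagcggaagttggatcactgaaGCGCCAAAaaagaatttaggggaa
PCNA: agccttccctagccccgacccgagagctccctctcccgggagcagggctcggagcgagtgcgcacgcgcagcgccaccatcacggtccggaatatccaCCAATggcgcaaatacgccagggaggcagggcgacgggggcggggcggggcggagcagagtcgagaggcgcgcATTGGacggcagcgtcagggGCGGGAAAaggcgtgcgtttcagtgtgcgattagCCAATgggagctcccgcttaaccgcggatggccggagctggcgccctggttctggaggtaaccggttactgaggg
MCM6: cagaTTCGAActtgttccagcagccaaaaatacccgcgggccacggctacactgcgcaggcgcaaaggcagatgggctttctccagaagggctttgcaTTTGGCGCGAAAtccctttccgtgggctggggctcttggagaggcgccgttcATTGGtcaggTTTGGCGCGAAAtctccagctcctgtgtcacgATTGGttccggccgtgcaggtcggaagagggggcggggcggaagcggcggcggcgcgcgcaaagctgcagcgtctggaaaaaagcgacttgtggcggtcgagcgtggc
CCNB2: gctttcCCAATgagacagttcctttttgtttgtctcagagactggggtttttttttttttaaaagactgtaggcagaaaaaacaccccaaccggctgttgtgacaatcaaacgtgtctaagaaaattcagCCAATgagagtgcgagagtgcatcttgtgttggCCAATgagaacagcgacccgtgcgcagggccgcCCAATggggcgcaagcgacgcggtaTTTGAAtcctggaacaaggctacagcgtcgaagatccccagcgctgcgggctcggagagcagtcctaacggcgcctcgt

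The remaining 5 subunits of the origin recognition complex, which marks origins and recruits the loading factors, were not called. ORC4, the most abundant of the complex by CPM, had 69.3, 69.8, 83.8 and 80.1 CPM in NPY1R high and 73.4, 73.5, 73.2 and 83.0 CPM in NPY1R low. These ranges overlapped almost fully, and the log2 fold change was -0.001 (SE 0.08, 95% interval -0.18 to 0.17). ORC4 counts were not whole numbers in any of the 8 libraries, so some of its reads were assigned in part. ORC1, the subunit whose amount follows the cell cycle, had -0.21 (SE 0.13, adjusted p 0.369). ORC2, ORC3 and ORC5 had log2 fold changes between -0.15 and -0.09. As mean log2 CPM over all 6 subunits, ORC6 included, the complex stood at 5.54, 5.58, 5.52 and 5.47 in NPY1R high. In NPY1R low it stood at 5.73, 5.72, 5.595 and 5.64, so the groups did not overlap. On this measure RPA1, RPA2 and RPA3 together also did not overlap, while every other role did. These means were not tested.

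The loading factors CDC6 and CDT1 and their inhibitor geminin, encoded by GMNN, were not called either. CDC6 had 112.5, 114.4, 90.4 and 91.7 CPM in NPY1R high and 111.9, 118.9, 92.4 and 99.1 CPM in NPY1R low. The groups overlapped, and the log2 fold change was -0.05 (SE 0.10, 95% interval -0.28 to 0.19). CDT1 was measured least precisely of these genes, at 17.2, 15.6, 8.7 and 13.1 CPM against 20.1, 20.1, 12.6 and 8.1 CPM. NPY1R low replicate 4 held the lowest value, and the interval of its log2 fold change ran from -0.82 to 0.50. GMNN had -0.09 (SE 0.09, adjusted p 0.569).

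The MCM2-7 helicase core showed no called subunit and signs in both directions. MCM7, the most abundant by CPM, had 415, 386, 311 and 321 CPM in NPY1R high and 436, 451, 389 and 344 CPM in NPY1R low. The groups overlapped, with a log2 fold change of -0.18 (SE 0.11, adjusted p 0.37, or 0.0318 in the fit that allowed for the replicate pairs). MCM3 had 345, 349, 278 and 274 CPM in NPY1R high and 310, 309, 266 and 261 CPM in NPY1R low, a log2 fold change of 0.12 (SE 0.10, adjusted p 0.51). MCM4 had 0.07 (SE 0.08) and MCM6 -0.0031 (SE 0.07). MCM2 and MCM5, both GC-rich, had wide intervals of -0.44 to 0.33 and -0.57 to 0.49. In NPY1R low replicate 4 MCM2 had 126 CPM, against 200 CPM in replicate 1. MCM5 had 78.2, 84.7, 55.2 and 37.3 CPM across the NPY1R low libraries, a spread wider than the difference between the group means of 62.1 and 63.8 CPM. MCM10, which helps start the assembled helicase, had -0.04 (SE 0.11, adjusted p 0.891).

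CDC45 and the 4 GINS subunits, the partners that turn MCM2-7 into a moving helicase, were all within 0.18 of 0. GINS1 had 85.9, 88.3, 83.0 and 77.0 CPM in NPY1R high and 83.4, 96.7, 87.6 and 93.0 CPM in NPY1R low. The ranges overlapped, and the log2 fold change was -0.11 (SE 0.07, 95% interval -0.26 to 0.04). GINS2 had -0.17, GINS3 -0.14, CDC45 -0.03 and GINS4 0.04, with adjusted p from 0.231 to 0.92. Exons of GINS2 overlap GSE1, which has more counts, on the other strand, so its value is uncertain, although the counts of GINS2 were whole numbers in every library. All 5 intervals lay within 0.5 of 0.

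Polymerase alpha and primase, which lay down the RNA and DNA primers of each fragment, had 0 of 4 genes called. The log2 fold changes of POLA1, POLA2, PRIM1 and PRIM2 ran from -0.11 to -0.01. POLA1 had 192, 194, 169 and 160 CPM in NPY1R high and 183, 183, 190 and 201 CPM in NPY1R low. NPY1R high was above NPY1R low in replicates 1 and 2 (0.08) and below it in replicates 3 and 4 (-0.25).

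Polymerase delta, the main copier of the lagging strand, and polymerase epsilon, of the leading strand, were also not called. POLE, the catalytic subunit of epsilon, had 158, 154, 101 and 135 CPM in NPY1R high and 162, 176, 158 and 125 CPM in NPY1R low, a log2 fold change of -0.18 (SE 0.14, adjusted p 0.487). POLD1, the catalytic subunit of delta, had the widest interval of the list, -0.70 to 0.74. Its levels were 23.6, 20.3, 12.1 and 16.2 CPM in NPY1R high and 21.4, 26.1, 15.6 and 8.1 CPM in NPY1R low, so no statement on its direction can be made at this precision. POLD2, POLD3 and POLE2 ran from -0.12 to 0.04, and POLD2, which is GC-rich, had 114 CPM in NPY1R low replicate 4 against 171 CPM in replicate 1.

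In the clamp and clamp loader, RFC3 stood beside 5 genes that were not called. PCNA, the clamp itself, had 316, 304, 298 and 258 CPM in NPY1R high and 284, 319, 278 and 268 CPM in NPY1R low. The means of 293.9 ± 25.0 and 287.2 ± 22.2 CPM (SD, n = 4 each) differed by less than the spread, with a log2 fold change of 0.03 (95% interval -0.14 to 0.20). RFC1, the large subunit, had -0.04 (SE 0.05), and RFC2, RFC4 and RFC5 had -0.20, -0.14 and -0.09, with adjusted p from 0.188 to 0.713 over these 4. RFC4 passed with the GC offset (adjusted p 0.0427), and RFC2 in the fit that allowed for the replicate pairs (adjusted p 0.00981). FEN1 and LIG1, the nuclease and the ligase that join Okazaki fragments, had 0.09 (SE 0.12) and -0.14 (SE 0.18). LIG1 had 34.3 CPM in NPY1R low replicate 4 and 54.3 CPM in replicate 1. FEN1 had 161, 151, 126 and 125 CPM against 143, 156, 119 and 111 CPM, and each range spans most of the other. Exons of RFC4, RFC5 and FEN1 overlap EIF4A2, WSB2 and TMEM258 on the other strand, and those of PRIM1 and FEN1 overlap NACA and FADS2 on the same strand, so their counts are uncertain. The counts of RFC4, RFC5, FEN1 and PRIM1 were whole numbers in every library.

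Among genes of nucleotide supply, RRM2, the small subunit of ribonucleotide reductase that limits its activity in S phase, had a difference of the same size as RRM1 but a wider spread. It had 194, 213, 155 and 137 CPM in NPY1R high and 218, 235, 208 and 200 CPM in NPY1R low. Replicate 2 of NPY1R high lay within the NPY1R low range, and the log2 fold change was -0.30 (SE 0.13, adjusted p 0.16). In the fit that allowed for the replicate pairs its adjusted p was 0.0134, and no fit that left out a library called it. TYMS, thymidylate synthase, had -0.10 (SE 0.10) and TK1, thymidine kinase, -0.19 (SE 0.27), with 23.3 CPM in NPY1R low replicate 4 and 50.2 CPM in replicate 1. TYMS counts were not whole in any library, and its exons overlap ENOSF1 on the other strand.

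RPA1 and RPA2, the larger subunits that bind single-stranded DNA with RPA3, had log2 fold changes of -0.06 (SE 0.05) and -0.08 (SE 0.08). RPA1 had the narrowest interval of the list, -0.17 to 0.05. CHAF1A and CHAF1B, subunits of the chaperone that deposits histones behind the fork, had -0.09 (SE 0.14) and -0.03 (SE 0.09). CHAF1A had 47.9, 44.3, 35.0 and 36.6 CPM in NPY1R high and 47.4, 50.7, 42.1 and 34.3 CPM in NPY1R low, ranges that overlap. Exons of CHAF1B overlap MORC3, which has more counts, on the same strand, so its value is uncertain, although the counts of CHAF1B were whole numbers in every library.

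Levels were compared between genes per length, as CPM per kilobase of a single GENCODE transcript of each gene, in NPY1R low. PCNA was highest at 211 CPM per kilobase, followed by MCM7 at 137 and MCM3 at 89.3. CDT1 at 4.70, CHAF1B at 5.13 and POLD1 at 5.17 were lowest, and the median of the 48 was 24.6. Subunits of a complex were not level on this scale: MCM2-7 ran from 18.1 for MCM5 to 137 for MCM7, and the clamp loader from 24.5 for RFC1 to 56.1 for RFC2. The called genes were spread over this range, with RRM1 at 58.5, RFC3 at 36.1, RPA3 at 23.1 and MCM8 at 10.3 CPM per kilobase. A gene's transcript length in these cells may differ from the annotated one.

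The spread within a group followed GC content. Across the 48 genes, Spearman's rho between transcript GC content and the log2 ratio of NPY1R low replicate 4 to replicate 1 was -0.801. With the coefficient of variation, the rho of GC content was 0.802 in NPY1R low and 0.617 in NPY1R high. The genes share these libraries, so this is a description. POLD1 (64.8% GC) had a log2 ratio of -1.40 between these libraries, CDT1 -1.32, TK1 -1.11 and MCM5 -1.07, while ORC4 (37.7% GC) had 0.18. The rho between GC content and the log2 fold change of the groups was 0.0283. Precision followed the same division: the 24 genes of higher GC content had a median SE of 0.12 and 0 calls, and the 24 of lower GC content a median SE of 0.08 and all 4 calls. After an offset for GC content, 6 of the 48 were called lower, the same 4 with ORC6 (adjusted p 0.0342) and RFC4. In that fit 12.8% of all tested genes were called lower, so the share of the 48 remained near the background.

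**Figure D3:**
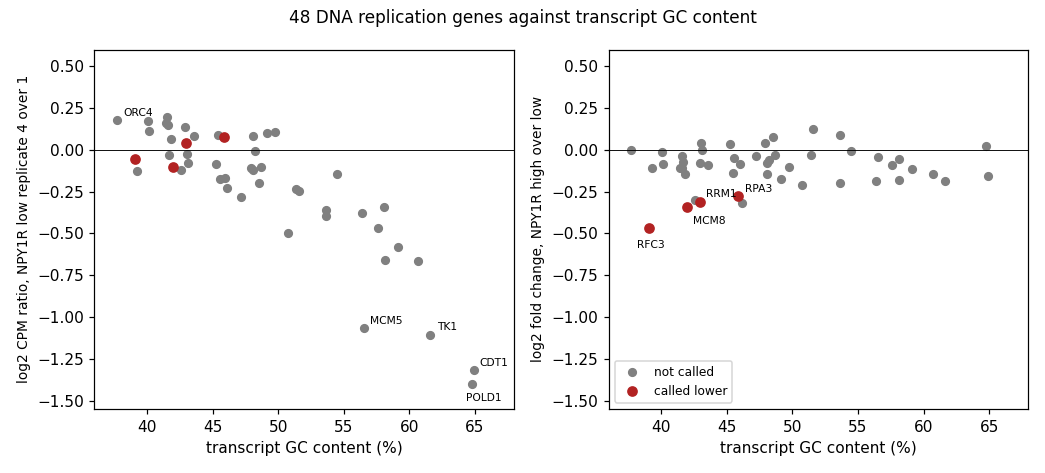
Transcript GC content in percent (x axis) of the 48 replication genes against the log2 CPM ratio of NPY1R low replicate 4 over replicate 1 (left) and the log2 fold change of NPY1R high over low (right); each point is a gene, red for the 4 called lower. On the left the points fall with GC content, to -1.40 for POLD1; on the right they do not, and the 4 called genes lie at 45.89% GC or below.

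Mitotic genes gave a reference in the same libraries. All 30 mitotic genes on a list of G2 and M phase genes were called lower, against 7.81% of all tested genes. Their median log2 fold change was -0.90, with single genes from -1.15 to -0.32. The smallest difference was that of CDK1 (adjusted p 0.0398). The list was chosen with earlier results of these data known. CCNB1, the main mitotic cyclin, had 90.5, 84.4, 78.7 and 70.6 CPM in NPY1R high and 177, 163, 172 and 186 CPM in NPY1R low, and MKI67, the gene of the Ki-67 antigen, had a log2 fold change of -0.98 (SE 0.11). Averaged over genes as mean log2 CPM, the replication genes had levels of 6.16, 6.17, 5.93 and 5.90 in NPY1R high and 6.21, 6.27, 6.07 and 6.00 in NPY1R low. The groups overlapped, and replicates 1 and 2 were above replicates 3 and 4 in both. The mitotic genes had 6.33, 6.21, 6.04 and 5.96 in NPY1R high and values from 6.95 to 7.01 in NPY1R low, with no overlap. Of the mitotic promoters in the table, 20 of 25 (80.0%) held a CHR word and 2 an E2F word. The difference between the lists was not tested, and the share of cells in each phase was not measured.

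**Figure D4:**
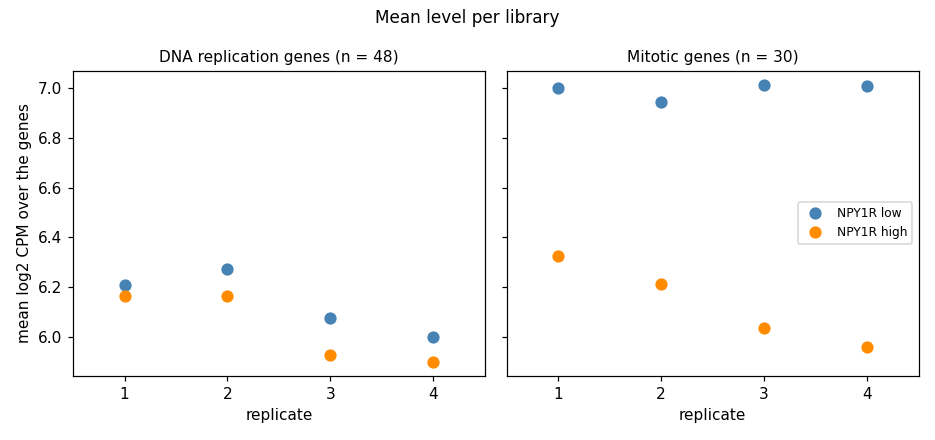
Mean log2 CPM over genes (y axis) by replicate number (x axis) in NPY1R high and NPY1R low libraries, for the 48 replication genes (left) and 30 mitotic genes (right); each point is a library and replicate numbers do not pair the groups. The replication genes overlap between the groups, from 5.90 to 6.27, while the mitotic genes lie at 6.33 or below in NPY1R high and at 6.95 or above in NPY1R low.

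A further 48 genes of replication, its control and its chromatin were drawn from a list. Of these, 3 were called lower and 0 higher, with a median log2 fold change of -0.13; the 3 are 6.25% of the list, below the 7.81% of all tested genes. At an unadjusted p under 0.05, 11 of these 48 were lower and 1 higher, against 15.1% and 11.1% of all tested genes. By that measure the lower share was above that of all tested genes and the higher share below it. DBF4, the activating subunit of the CDC7 kinase that fires licensed origins, had 89.2, 86.3, 91.7 and 80.0 CPM in NPY1R high and 120, 121, 119 and 127 CPM in NPY1R low. The groups did not overlap, and the log2 fold change was -0.49 (SE 0.06, adjusted p 0.000323). Its relative DBF4B had -0.59 (SE 0.14, adjusted p 0.0204) at a low level of 6.00 against 9.08 CPM. DBF4B did not pass at an adjusted p under 0.01. Without NPY1R high replicate 3, 1 of these 48 genes was called lower, against 5.02% of all tested genes. Without NPY1R high replicate 4 it was also 1, against 4.42%. SSRP1, a subunit of the histone chaperone FACT, had -0.23 (SE 0.05, adjusted p 0.0166), and its call was lost in several fits, with library totals and without NPY1R high replicate 4 among them. CDC7 itself had 0.09 (adjusted p 0.475), and SUPT16H, the partner of SSRP1, -0.03 (adjusted p 0.789). UNG, the uracil DNA glycosylase, was above in NPY1R high in every library, with a log2 fold change of 0.36 (SE 0.11, adjusted p 0.0603). UNG, CDC7 and SUPT16H were named after their values were seen.

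The number of replication genes called depended on the fit, as did the number of all genes. It was 2 with library totals and without NPY1R high replicate 4, NPY1R low replicate 1 or NPY1R low replicate 3. In these fits 5.76%, 4.42%, 4.8% and 5.56% of all tested genes were called lower, in that order, each above the share of the 48. The number was 8 when the replicate pairs (1 and 2, 3 and 4) were fitted, where 12% of all tested genes were called lower, below the share of the 48. It was 12 lower with 2 higher (MCM3 and FEN1) when both the pairs and GC content were fitted. That model called 17.9% of all tested genes lower and 12.1% higher. The lower share of the 48 was above the first of these values, and their higher share was below the second. Of the 48 genes, 33 were called in none of the 28 alternatives.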

How the data were processed

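Gene expression was measured by RNA sequencing in 8 libraries, 4 NPY1R high and 4 NPY1R low, grouped by their labels. The authors deposited expected counts, 1 row per symbol and without scaling, and the submitters' processing notes name hg38, STAR 2.5.2 and RSEM 1.3.0. Strand settings and annotation are not given in the sources used here. The series table was used, and 0 values differed from the single-sample tables. Pairs of libraries within a group had a chi-square of 5.99 or more per degree of freedom, far above sampling noise. The design assumed whole counts, so expected counts were rounded.

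Genes were filtered with filterByExpr (minimum count 10) over the whole table, scaled by TMM and tested with edgeR's quasi-likelihood test without covariates. The default TMM reference was NPY1R low replicate 4. P-values were adjusted by Benjamini-Hochberg over all 14008 tested genes, with a threshold of 0.05. Log2 CPM used a prior count of 2. The software was edgeR 4.0.16 in R 4.3.3, with DESeq2 1.42.0 and limma 3.58.1 for alternatives. GC content and length came from 1 transcript per gene in GENCODE release 29 (97.2% of tested genes), and promoters from RefSeq (GRCh38.p14). The test was checked on simulated data. It seldom called the smallest change planted there, which was larger than most of those seen in the 48 genes. Fewer genes were changed there than were called in these data, which makes the adjustment stricter, so that rate may not carry over. A gene without a call may still differ.

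The 48 genes, the other lists and the alternatives were chosen with earlier results of these data known. Values per library are given for called genes, for genes with an adjusted p under 0.1, and for the most abundant gene of each role without a call. For the other replication genes, up to 4 called genes in each direction were named, and NPY1R, MKI67 and CCNB1 were named whatever their p. Further genes with values per library were chosen after their values were seen. Alternatives were other scalings, TMM references, filters and tools, robust shrinkage, a GC offset (spline with 5 degrees of freedom), a replicate block, a term for replicates 1 and 2 against 3 and 4, each library left out, and a threshold of 0.01. The term together with the GC offset was added after seeing the data. Counts carry no molecular identifiers, and totals of 18025648 to 30609791 set the counting error, which is only part of the spread.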

Additional observations from a re-analysis of the deposited data

Results flagged for a closer look

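ORC4 had 83.0 CPM in NPY1R low replicate 4, while the other 3 NPY1R low libraries lay between 73.2 and 73.5 CPM. That gap took up 0.968 of the group's spread from lowest to highest, more than Dixon's 95% critical value for 4 samples allows. Among 96 sets of 4 values examined, 1 crossed that value, where 4.8 would by chance. ORC4 has the lowest GC content of the 48 genes, at 37.7%, and in NPY1R low replicate 4 GC-rich members had low values; the part of GC content in this value was not tested.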

How the results depend on the processing

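RFC3 and RRM1 were called lower in all 28 alternatives. Of the 48 genes, the number called lower was 4 in the reported fit, 2 with library totals and at an adjusted p under 0.01, 8 with the term for replicates 1 and 2 against 3 and 4, 8 with the block plus the offset for GC, and 12 with the term plus that offset, which also gave 2 higher. Leaving out each library gave 2 to 4 lower. The replicate numbers did not pair the libraries: deviations of same-numbered libraries correlated at 0.339, 0.157, 0.0907 and 0.0178 across genes, and 1 of 4 NPY1R high libraries correlated best with its own number. The replicate block alone gave 6 of the 48 replication genes lower, with ORC6 (adjusted p 0.0162) and RRM2 (0.0342) added to the 4. With the block 7.34% of all tested genes were called lower, and with the block plus the offset 14.4%. Both values are below the share of the 48 in the same fit.

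Of all tested genes, 1094 were lower and 810 higher. The lower count was 1799 with the GC offset, 2019 with the block and the offset, 1681 with the term, 2512 with the term and the offset, 562 at an adjusted p under 0.01, and 625 to 1064 with each library left out. The higher count was 1359 with the block and the offset, 1690 with the term and the offset, and 470 at 0.01. Of the 48 other replication genes, 3 lower became 6 with the GC offset, 16 with the block and the offset, 11 with the term, 21 with the term and the offset, 1 at 0.01, and 1 to 5 with each library left out. Their higher count of 0 became 1 (2 with the term and the offset) in every scaling and TMM reference tried, both filters, DESeq2, the block and the GC offset, and 0 to 1 with each library left out. Of the 30 mitotic genes, 28 to 30 were called lower in every fit and at both thresholds.

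ORC4, at -0.001, was 0.0249 with median-of-ratios factors, 0.0239 with DESeq2, 0.0538 with upper-quartile factors, 0.0376 with library totals, 0.0398 with no filter and 0.0412 with the CPM filter. With TMM references NPY1R high 1 to 4 it was 0.0299, 0.0290, 0.0242 and 0.0239, and with NPY1R low 1 to 3 0.0388, 0.0397 and 0.0323. With each library left out, ORC4 ran from -0.0246 to 0.0818, CDC6 from -0.106 to 0.0406, POLA1 from -0.123 to 0.0058 and CHAF1A from -0.175 to 0.0081, and CDC6 was 0.0069 with upper-quartile factors. RPA3 kept its sign and lost its call with each other scaling, each other TMM reference and both filters. The causes were not tested.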

Other observations

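Within replicates 1 and 2 alone, 32 of the 48 replication genes were lower in NPY1R high, and within replicates 3 and 4 alone 37 were. These values used the reported scaling, with NPY1R low replicate 4 as reference. The share of all tested genes in the same subsets is not given here, so these counts cannot be read against a background. The sign differed between the 2 subsets for 17 of the 48 genes, and for 4 of the 17 both values were over 0.1 in size. TYMS had a log2 difference of 0.11 in replicates 1 and 2 and -0.33 in replicates 3 and 4, and PRIM1 had 0.11 and -0.14. MCM5 had -0.17 and 0.20, and POLD1 -0.11 and 0.32. RRM2 had -0.15 and -0.49, so its sign was the same and its size differed. The labels give no batch, and these differences were not tested.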
